A study of Mus musculus with 12 samples.

Results

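The Zfp503 promoter was 1 of 24 named promoters used as baits in CaptureC, and its contacts with the rest of chromosome 14 are described here in 4 groups of mouse embryonic stem cells (ESCs). CaptureC pulls down a chosen restriction fragment, the bait, after crosslinked chromatin has been cut with DpnII and ligated, so that fragments lying near the bait in the nucleus are read out as its ligation partners. The contacts were the 26 rows of the interaction table whose bait has the position listed for Zfp503, of 842 contacts of 44 baits in all. Of the 26, 5 overlapped a RING1B site also occupied by PCGF2 (PCGF2 sites) and 21 did not (other sites).

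The PRC1CPM cells, clone 41 of strain E14, carried Rosa26::ERT2-Cre, a Cre expressed from the Rosa26 locus and active only with tamoxifen. Their Ring1a was Ring1aI50A/D53K, and their Ring1b was Ring1b(WT->I53A/D56K)fl/fl. They were either untreated or had been kept for 72 h in 4-hydroxytamoxifen (OHT) at 800 nM, which turns on the Cre and switches Ring1b to its catalytically inactive form. Both PRC1CPM groups thus carry the mutated Ring1a and the Cre transgene, and the untreated cells are not wild-type. The Control line was Tir1 and the PRC1DEG line was Tir1, Ring1a-/- and Ring1bAID, both of strain E14, and both received 0.5 mM auxin for 6 h, so that auxin and Tir1 are shared, RING1B is degraded in PRC1DEG cells alone, and Ring1a is missing from PRC1DEG cells alone as well. The auxin libraries were made in a separate, earlier experiment. Each group had 3 replicates, which the authors merged before deposit, so that there is 1 value per group, no spread between replicates and no test between conditions.

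Polycomb repressive complex 1 (PRC1) is a ubiquitin ligase for a core histone, with RING1A or RING1B as its catalytic subunit, and it keeps developmental genes silent in ESCs. Canonical PRC1, which contains PCGF2 or its paralogue, binds the methyl mark placed by PRC2 and can join distant target sites in the nucleus. Zfp503 encodes a zinc finger repressor of the developing striatum and limb, and its CpG-rich promoter is a typical Polycomb target.

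The bait fragment covered chr14:21987125-21989661 in GRCm38 (2537 bp, with GATC at both ends). Zfp503 (ENSMUSG00000039081.10) lies on the minus strand, and its transcription start site (TSS) at 21989601 was 60 bp inside one end of the fragment. The fragment held exon 1, which is untranslated, and exon 2 with the first 330 bp of coding sequence, and it overlapped a RING1B and PCGF2 site itself. Its GC content was 60.2% and its 178 CpGs were 0.777 of the number its base composition would give. The capture oligonucleotides are shown because they define the bait, on the plus strand and 5′ to 3′, with the DpnII site in capitals. The left one covers chr14:21987125-21987244, and of the right one only the 64 bases upstream of the gene, chr14:21989602-21989665, are given.
Zfp503 left oligonucleotide: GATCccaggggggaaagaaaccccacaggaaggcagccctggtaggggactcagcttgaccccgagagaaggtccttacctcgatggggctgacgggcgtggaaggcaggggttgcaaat
Zfp503 right oligonucleotide, upstream part: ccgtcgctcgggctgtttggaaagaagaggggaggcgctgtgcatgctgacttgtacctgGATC

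The 5 PCGF2 sites lay at CpG-rich ends of genes with varied functions. The contact at Fezf2, a zinc finger factor of subcortical projection neurons, covered chr14:12342446-12345679, 9.64 Mb from the bait, with coding sequence and a UTR, and ended 0.165 kb from the nearest Fezf2 TSS. That at the promoter of Kcnma1, the pore subunit of a calcium-activated potassium channel, covered chr14:24000077-24005829, 2.01 Mb away. That at Zmiz1, a transcriptional coregulator, covered chr14:25457404-25466283, 3.47 Mb away. That at Wnt5a, a ligand of non-canonical Wnt signalling, covered chr14:28504363-28513528, 6.51 Mb away. These 3 held the TSS of their gene. The contact next to Cacna2d3, an accessory subunit of voltage-gated calcium channels, covered chr14:29722332-29724216, 7.73 Mb away, was intergenic and ended 0.468 kb from the TSS. Fezf2 alone lay at lower coordinates than the bait, and the other 25 contacts at higher ones.

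For the bait and 4 of the PCGF2 sites, the 150 bases outside annotated UTRs with the most CpGs are shown, since CpG density is what these regions share and the rule did not use it. Below them stands the same window of the other-site contact with the highest score in untreated cells, within the Kcnma1 gene. The letters are those of the plus strand of GRCm38, 5′ to 3′, with each CG in capitals. The windows are chr14:21987337-21987486 (Zfp503, coding), chr14:12344739-12344888 (Fezf2, coding), chr14:24004891-24005040 (Kcnma1 promoter), chr14:25459774-25459923 (Zmiz1), chr14:29722532-29722681 (Cacna2d3) and chr14:23410256-23410405 (Kcnma1 gene body). All but those of Zfp503 and Fezf2 held no exon of a protein-coding transcript.
Zfp503 bait: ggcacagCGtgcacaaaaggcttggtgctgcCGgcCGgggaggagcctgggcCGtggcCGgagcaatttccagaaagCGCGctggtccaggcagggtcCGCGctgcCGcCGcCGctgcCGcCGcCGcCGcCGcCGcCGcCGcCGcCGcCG
Fezf2: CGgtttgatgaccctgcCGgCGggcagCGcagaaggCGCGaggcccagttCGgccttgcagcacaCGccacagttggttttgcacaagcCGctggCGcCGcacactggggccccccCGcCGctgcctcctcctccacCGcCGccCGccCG
Kcnma1 promoter: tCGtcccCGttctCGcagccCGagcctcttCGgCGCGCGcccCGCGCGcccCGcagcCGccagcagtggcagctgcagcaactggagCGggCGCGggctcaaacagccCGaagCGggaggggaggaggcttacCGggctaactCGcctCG
Zmiz1: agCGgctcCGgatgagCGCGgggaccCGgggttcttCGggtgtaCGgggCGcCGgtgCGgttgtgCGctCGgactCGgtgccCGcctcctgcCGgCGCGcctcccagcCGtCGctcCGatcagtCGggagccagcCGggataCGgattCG
Cacna2d3: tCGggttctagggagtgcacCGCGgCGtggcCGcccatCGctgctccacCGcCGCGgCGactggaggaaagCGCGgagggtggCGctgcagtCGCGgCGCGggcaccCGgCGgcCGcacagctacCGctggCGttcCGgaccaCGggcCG
Kcnma1 gene body: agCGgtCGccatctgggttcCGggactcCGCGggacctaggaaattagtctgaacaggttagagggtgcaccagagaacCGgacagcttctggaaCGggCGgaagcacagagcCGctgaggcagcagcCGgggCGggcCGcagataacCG

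The windows held 23 CpGs in the bait, 17 at Fezf2, 21 at the Kcnma1 promoter, 24 at Zmiz1, 25 at Cacna2d3 and 13 in the Kcnma1 gene body. CG reads the same on both strands. Over the 408 contacts of named baits with such a window, 18.4% reached the 17 CpGs of Fezf2, which has the fewest of the 5, and 5.64% reached the 25 of Cacna2d3. Among the 21 other-site contacts of Zfp503 the count ran from 0 to 13, with a median of 4, so that it did not overlap the range of 17 to 25 at the PCGF2 sites. Over named baits the medians were 17 at 126 PCGF2 sites and 5 at 282 other sites. Over the whole contact the observed to expected CpG ratio was 0.521 to 0.613 at the PCGF2 sites (median 0.540) and 0 to 0.423 at other sites (median 0.179). The GC content was 52.7 to 57.4% and 36.4 to 52.4%, and these ranges lay next to each other (52.72% against 52.43%). Over named baits the classes overlapped widely, with a GC content of 39.6 to 73.1% at PCGF2 sites and 31.3 to 70.8% at other sites, and a CpG ratio of 0 to 0.914 and 0 to 0.799.

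The values of the bait were low counts. Deposited normalized counts were whole multiples of 1 weighted read in each library (all 3368 values at a tolerance of 0.1 read), and so reads could be recovered. The 26 contacts together held 1529 reads in untreated PRC1CPM cells, 1060 with OHT, 1000 in Control and 807 in PRC1DEG libraries, of 102920, 70920, 83656 and 66102 reads over all 842 contacts. Below, each level is given in reads and each change as the normalized count in percent of its reference, with a 95% Wilson interval. These intervals cover counting error only, since reads carry no molecular identifiers and merged replicates hide the biological spread. All 26 contacts entered the table through a score of at least 5 in at least 1 of these libraries, the lowest best score being 5.18. No PCGF2 site reached this score at its summit in a perturbed library, so that falls at all 5 were favoured by the selection.

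The clearest change was at the 2 widest PCGF2 sites, Zmiz1 and Wnt5a, which lost most of their reads in both systems. Both entered the table through references, the libraries where they are high, so that lower perturbed values were favoured by the selection. Zmiz1 (17 fragments) held 65 reads in untreated PRC1CPM cells and 21 with OHT, and 69 in Control against 15 in PRC1DEG cells. This is 35.3% of the reference after OHT (interval 21.7 to 57.5%) and 19.9% of it in PRC1DEG cells (11.5 to 34.5%). Both perturbed libraries were low and both references high, and neither interval reached 100%.

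Wnt5a (15 fragments) held 44, 15, 66 and 12 reads in the same order of groups. Its normalized count was 37.3% with OHT (20.9 to 66.4%) and 16.6% in PRC1DEG cells (9.07 to 30.5%). Of 25 developmental regulators listed on chromosome 14, such as Bmp4, Otx2, Zic2 and Gata4, Wnt5a was the only one with a TSS inside, or within 5 kb of, a contact of the bait. Fezf2, with a TSS 0.165 kb from a contact, was not in that list. No share over all genes of the chromosome is given beside this count, so it is a description of the listed genes only. That list and the contacts were chosen with earlier results of these data known.

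The Kcnma1 promoter (9 fragments) held 33, 16, 44 and 17 reads. It was at 53.0% with OHT (29.4 to 95.5%) and at 35.3% in PRC1DEG cells (20.3 to 61.4%). Its loss in PRC1DEG cells was the smallest of the 5, with intervals that overlap those of the other 4.

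The 2 contacts of 3 fragments each had few reads. Fezf2, the most distant, held 6 reads in untreated cells and 3 with OHT, and 15 in Control against 3 in PRC1DEG cells. A change after OHT was not detectable at this depth (54.7%, interval 15.0 to 199%), and the count in PRC1DEG cells was 18.3% of Control (interval 5.67 to 59.0%). Cacna2d3 held 5, 3, 11 and 2 reads, with 65.6% of the reference left by OHT (17.3 to 248%) and 16.6% in PRC1DEG cells (4.14 to 66.9%). Both contacts entered the table only through their score in Control, the library where they are high, so that lower values in PRC1DEG cells were favoured by the selection and are given as a description.

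**Figure D1:**
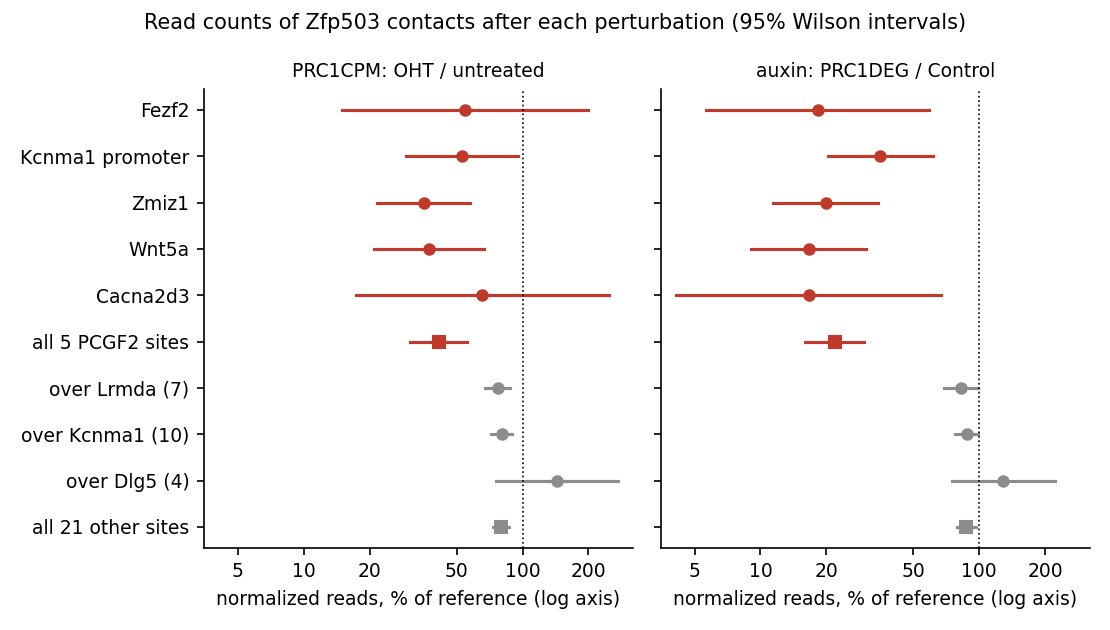
Normalized reads of Zfp503 contacts in percent of their reference (log axis), after OHT against untreated PRC1CPM (left) and in PRC1DEG against Control (right). Points are single PCGF2 sites or sums over the other-site contacts of 1 gene, squares are sums over a class, and bars are 95% Wilson intervals of counting error. Summed PCGF2 sites sit at 41.4% and 21.9%, and summed other sites at 79.6% and 87.2%.

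Summed over the 5 PCGF2 sites, reads went from 153 to 58 after OHT, which is 41.4% of the reference (interval 30.7 to 56.0%). In the auxin libraries they went from 205 to 49, or 21.9% (interval 16.0 to 29.8%). The 21 other sites held 1376 and 1002 reads around OHT (79.6%, interval 73.4 to 86.3%) and 795 and 758 in the auxin libraries (87.2%, interval 78.9 to 96.3%). The fall of the PCGF2 sites relative to the other sites of the same bait does not depend on the scale of a library. It left 52.1% with OHT (38.1 to 71.1%) and 25.1% in PRC1DEG cells (18.1 to 34.7%). This comparison was chosen after the values had been seen. The 5 PCGF2 sites entered the table through references and some other sites through a perturbed library alone, which favoured the relative fall. Other sites that entered through untreated cells act the other way after OHT.

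The same contrast can be read as the share of the bait's contact reads at PCGF2 sites. It was 10.0% in untreated PRC1CPM cells (153 of 1529 reads, interval 8.60 to 11.6%) and 5.47% with OHT (4.26 to 7.01%). In Control cells it was 20.5% (205 of 1000 reads, interval 18.1 to 23.1%) and in PRC1DEG cells 6.07% (4.62 to 7.94%). The references differed from each other beyond counting error, whereas the perturbed libraries had overlapping intervals. Cell line and capture experiment differ between the systems and cannot be told apart from this difference. The selection differed as well, since 15 of the 21 other sites scored at least 5 in untreated cells and 5 in Control. Fezf2 and Cacna2d3 entered through Control alone. With contacts of more than 2 Mb alone, where the Dlg5 contacts are the only other sites, the share went from 90.5% to 73.4% after OHT and from 90.3% in Control to 61.3% in PRC1DEG cells. Some Dlg5 contacts entered the table through a perturbed library alone, and the PCGF2 sites through references, so that these falls were favoured by the selection.

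**Figure D2:**
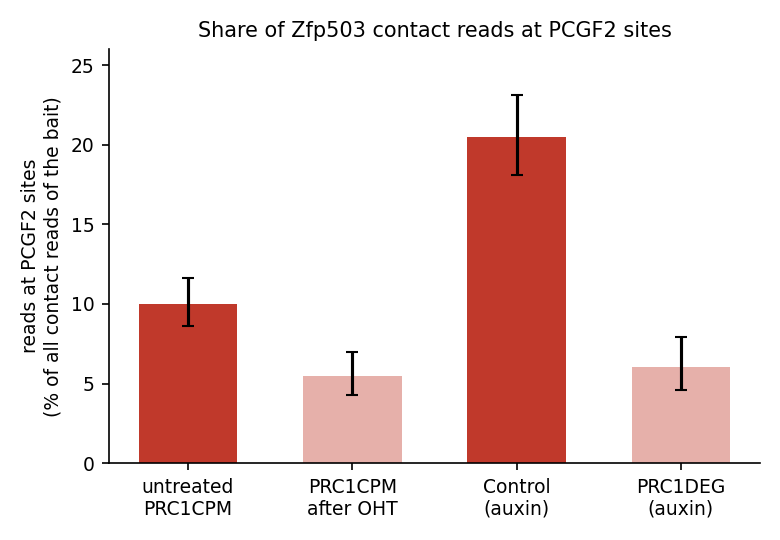
Reads at the 5 PCGF2 sites in percent of all contact reads of the Zfp503 bait, for the 4 groups. Bars start at 0 and error bars are 95% Wilson intervals. The share is 10.0% and 20.5% in the references and 5.47% and 6.07% after perturbation.

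On the log2 scale of mean normalized counts per fragment with a pseudocount of 0.000350, the median change at PCGF2 sites was -0.82 after OHT and -2.22 in PRC1DEG cells. Over the 130 PCGF2-site contacts of named baits the medians were -0.91 and -1.79. At the other sites of Zfp503 they were -0.21 and -0.12, beside -0.17 and 0.09 over the 284 other-site contacts of named baits. Counted over contacts called in the reference of the other system, a choice made after the values had been seen, the medians at the PCGF2 sites of Zfp503 were -0.77 after OHT and -2.08 in PRC1DEG cells. A fall of at least 2-fold was present at 2 of 5 PCGF2 sites after OHT (Zmiz1 and Wnt5a) and at 5 of 5 in PRC1DEG cells, of which Fezf2 and Cacna2d3 were selected by their Control value. The shares over all named baits were 46.9% and 76.9%. The counting interval lay wholly below no change at 3 of 5 after OHT, beside 56.9% over named baits, and at 5 of 5 in PRC1DEG cells, beside 69.2%. These counts are near the background of Polycomb target promoters, and Zfp503 does not stand out by them.

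At other sites, 0 of 21 contacts were at least 2-fold lower after OHT (background 5.28%) and 2 were higher (background 1.41%). PRC1DEG cells had 2 lower (background 3.87%) and 2 higher (background 4.93%). The 2 higher after OHT entered the table through OHT alone, and the 2 lower in PRC1DEG cells through Control alone. Of the 2 higher in PRC1DEG cells, chr14:24147265-24148320 entered through PRC1DEG alone and chr14:22798020-22799280 through untreated cells. The selection thus favoured most of these counts, which are given as a description. Intervals lay below no change at 2 contacts after OHT (background 7.39%) and at 3 in PRC1DEG cells (background 6.34%). None lay above it in either system, beside a background of 0.0% after OHT and 6.69% in PRC1DEG cells.

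Each of the 5 PCGF2 sites had a larger fall in PRC1DEG cells than after OHT, with a median difference of -1.09 on the log2 scale. The largest differences were at Fezf2 (-1.50) and Cacna2d3 (-1.76), which entered through Control alone, so that the selection favoured them. They were -0.58 at the Kcnma1 promoter, -0.76 at Zmiz1 and -1.09 at Wnt5a. For none of the 5 did the interval of the difference leave out 0. For the summed reads of all 5, Fezf2 and Cacna2d3 included, the ratio in PRC1DEG cells was 52.8% of that after OHT (interval 34.2 to 81.3%). At other sites this value was 110% (interval 96.3 to 125%). One system removes catalysis and the other the protein, but line, length of treatment, experiment and normalization differ too, and these cannot be told apart.

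CHiCAGO scores, which weigh the reads of a fragment against those expected at its distance, were next compared at the summit fragment of each contact. In untreated PRC1CPM cells they were 8.41 at the Kcnma1 promoter, 9.67 at Zmiz1, 6.90 at Wnt5a, 3.20 at Cacna2d3 and 0 at Fezf2. After OHT all 5 were 0 at the summit, while the mean scores over fragments were 0.224 at the Kcnma1 promoter, 0.196 at Zmiz1 and 0 at the others. In Control cells they were 17.1 at Fezf2, 15.9 at the Kcnma1 promoter, 7.56 at Zmiz1, 5.27 at Cacna2d3 and 4.82 at Wnt5a. The summit is the same fragment in all groups and need not score highest in each. At Wnt5a the mean score over its 15 fragments in Control was 6.63, above that of its summit. In PRC1DEG cells Zmiz1 had 0.272 and the other 4 had 0 at the summit, while the Kcnma1 promoter had a mean score of 0.239. The most distant contact, Fezf2, thus had the highest summit score in Control cells and 0 in untreated PRC1CPM cells, on 15 and 6 reads.

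With a summit score of at least 5 as the call, 3 of 5 PCGF2 sites were called in untreated cells (background 66.2%) and 0 with OHT (11.5%). In the auxin libraries 4 were called in Control (53.1%) against 0 in PRC1DEG cells (2.31%). Wnt5a was not called in Control by its summit, although its mean score over fragments there was 6.63. At the 21 other sites the calls numbered 15 in untreated cells (62.0%) and 6 with OHT (38.4%), and 5 in Control (9.86%) against 3 in PRC1DEG cells (10.6%). Of these sites, 4 were called both before and after OHT and 1 in both auxin libraries. The auxin backgrounds pool baits on 2 normalization scales, and 6 of the 24 named baits share that of Zfp503.

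**Figure D3:**
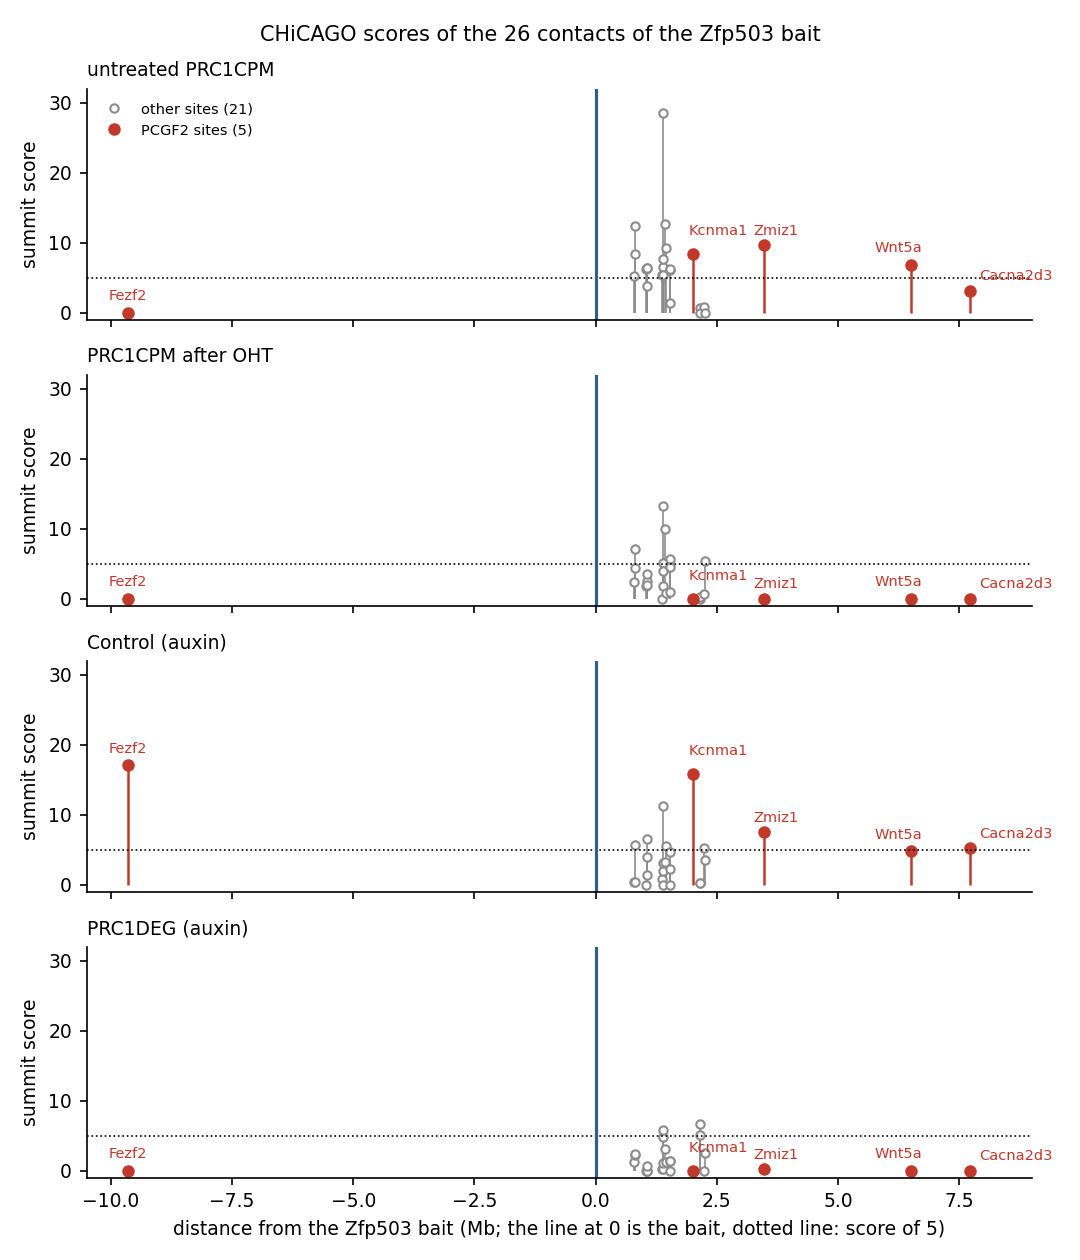
CHiCAGO score of the summit fragment (linear axis) against distance from the Zfp503 bait in Mb, for the 26 contacts in each of the 4 groups. Filled points are the 5 PCGF2 sites and open points the 21 other sites, and the dotted line is the score of 5 used for calls. The summit scores of the PCGF2 sites drop to 0 or 0.272 in the perturbed groups. The block of the Kcnma1 gene body with the most fragments, the tallest open point in all groups but PRC1DEG, stays above 5 in all 4.

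The other sites formed 3 clusters within the next genes along the chromosome, 0.798 to 2.25 Mb from the bait, and 4 of the 5 PCGF2 sites were farther away than any of them. There were 7 over Lrmda, a gene of melanocyte differentiation, 10 over the body of Kcnma1 and 4 over Dlg5, a scaffold protein of cell polarity. Of the 21, 15 were intronic and 6 held coding sequence. None held a TSS, and 1, in Dlg5, lay within 5 kb of one.

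By summit score in untreated cells, the Kcnma1 gene body had the highest of these contacts, although a contact over Lrmda had more reads. The block of the gene body with the most fragments, chr14:23390232-23411555 with 73, held 435 reads in untreated cells and 303 with OHT. It held 292 in Control against 241 in PRC1DEG cells. Summit scores were 28.6, 13.3, 11.3 and 5.82, of which all but that of PRC1DEG were the highest in their libraries among the 284 other-site contacts of named baits. Its normalized count was 76.1% with OHT (65.8 to 88.1%) and 75.5% in PRC1DEG cells (63.7 to 89.5%). This block was lower in both perturbed libraries, and its intervals overlap those of 4 PCGF2 sites after OHT (all but Zmiz1) and that of Cacna2d3 in PRC1DEG cells.

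Its neighbour chr14:23417839-23439521 (37 fragments) held 245, 192, 143 and 169 reads, at 85.7% with OHT (70.9 to 103%) and 108% in PRC1DEG cells (86.5 to 135%). The block chr14:23443850-23450519 (13 fragments) held 62, 48, 42 and 40 reads, and both of its intervals included no change. Summed over the 10 contacts, the gene body stood at 80.1% with OHT (72.1 to 89.0%) and 87.6% in PRC1DEG cells (77.4 to 99.0%).

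Kcnma1 thus had contacts of both classes along 1 gene. Its promoter relative to its body was at 66.1% with OHT (36.4 to 120%) and at 40.4% in PRC1DEG cells (22.9 to 71.1%), a comparison chosen after the values had been seen. The interval left out no change in the auxin libraries and included it after OHT, but these intervals overlap. Most body contacts scored at least 5 at the summit in untreated cells and few did in Control, whereas the promoter did in both. The selection could thus raise the untreated reference of the body more than its Control value, which would shrink the contrast after OHT. Whether the contrast differs between the systems was not tested.

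Over Lrmda, the block chr14:22801281-22824524 (49 fragments, intronic) held 450 reads in untreated cells, the most of any Zfp503 contact, and 308 with OHT, and 212 in Control against 183 in PRC1DEG cells. It was at 74.8% with OHT (64.7 to 86.5%) and 78.9% in PRC1DEG cells (64.8 to 96.2%). A further intronic contact, chr14:23038625-23040750 (7 fragments), held 34, 30, 11 and 20 reads, with no change detectable in either system. The 7 contacts together were at 76.9% and 82.9%.

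The Dlg5 contacts were weak, with slightly more reads in the perturbed libraries. Together they held 16 reads in untreated cells and 21 with OHT, and 22 in Control against 31 in PRC1DEG cells, which is 144% (interval 75.7 to 272%) and 129% (interval 75.1 to 221%), so that no change was detectable at this depth. The contacts chr14:24134042-24136592 and chr14:24147265-24148320, named after their values were seen, had scores of 5.18 and 6.65 in PRC1DEG cells and below 1 in the other 3 groups. Both thus entered the table through PRC1DEG alone, the library where they are high, so that this contrast was favoured by the selection. Of the remaining contacts, chr14:24243325-24244702 entered through OHT alone (5.35) and chr14:24232587-24233319 through Control alone (5.23). The contact chr14:24134042-24136592 held 8, 8, 8 and 16 reads and chr14:24147265-24148320 held 2, 3, 3 and 8, and their intervals in PRC1DEG cells included no change.

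**Figure D4:**
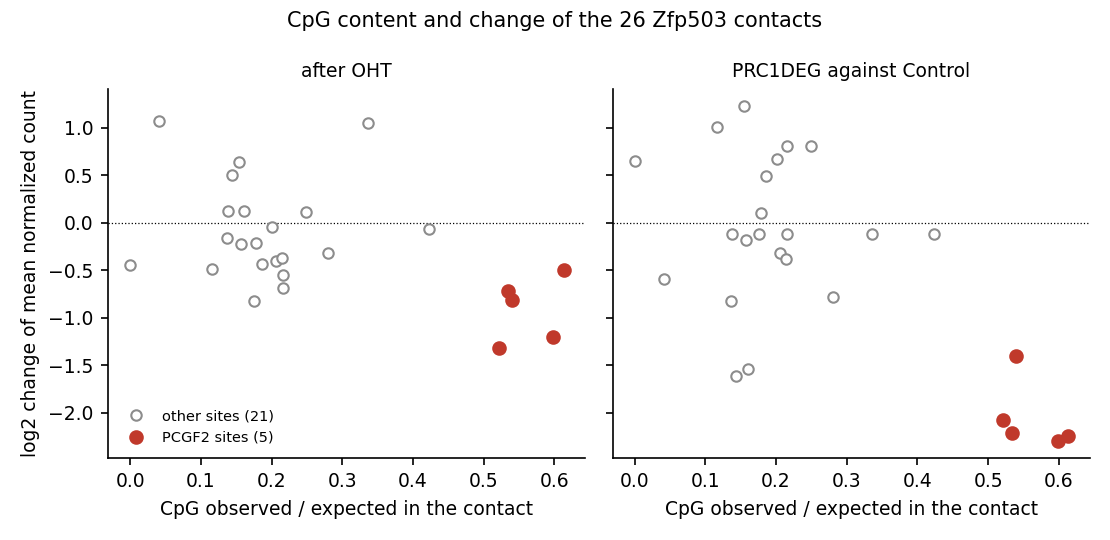
Log2 change of the mean normalized count of each Zfp503 contact against its observed to expected CpG ratio, after OHT (left) and in PRC1DEG against Control (right). Filled points are the 5 PCGF2 sites and open points the 21 other sites. The classes do not overlap on the horizontal axis, with PCGF2 sites at 0.521 or more and other sites at 0.423 or less.

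Among the 16 baits with at least 3 contacts at PCGF2 sites, the median change of Zfp503 ranked 11th from the largest fall after OHT and 3rd in PRC1DEG cells. The median in PRC1DEG cells was the value of Fezf2, which entered the table through Control alone. The selection thus favoured this rank, and the choice of nearest baits rests on the same median. The nearest baits in the plane of both medians were Nkx2-1, at -1.01 and -2.43 over 13 contacts, Dlx2, at -1.0 and -1.95 over 15, and Hoxd10, at -1.16 and -2.02 over 8. All 3 encode homeodomain transcription factors, and in the auxin libraries all 3 are on a different normalization scale from Zfp503. With 5 contacts and 1 value per group, whether Zfp503 differs from them was not tested. It had fewer PCGF2-site reads (153 in untreated cells) than Nkx2-1 (4751), Dlx2 (456) or Hoxd10 (508).

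The PCGF2-site contacts of Zfp503 were long. All 5 spanned more than 2 Mb, as did 47 of the 130 of named baits, and their median distance was 6.51 Mb (6515 kb) against 947 kb over named baits. Long contacts were not particular to it, since the medians were 3281 kb for Nkx2-1, 3108 kb for Dlx2, 5105 kb for Hoxd10 and 19520 kb for Eomes. The other named bait on chromosome 14, Fgf9, a growth factor gene, had 3 contacts, none of which overlapped a contact of Zfp503 or came within 5 kb of its bait. Its 2 PCGF2 sites held 10 reads in untreated cells and 2 with OHT, and 15 in Control against 1 in PRC1DEG cells. Both entered the table through Control alone, the library where they are high, so that lower values in PRC1DEG cells were favoured by the selection.

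**Figure D5:**
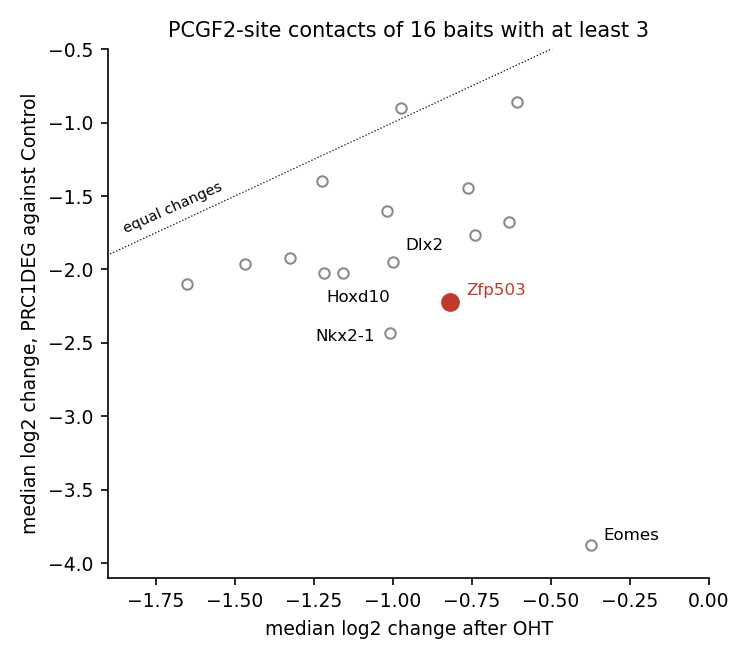
Median log2 change at PCGF2 sites after OHT (horizontal) and in PRC1DEG against Control (vertical) for the 16 named baits with at least 3 such contacts. The filled point is Zfp503, at -0.82 and -2.22, the named open points are Nkx2-1, Dlx2 and Hoxd10, nearest to it, and Eomes, the farthest, and the dotted line marks equal changes.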

How the data were processed

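CaptureC was carried out on genomic DNA of 12 ESC samples in 4 groups of 3 replicates. The authors aligned reads with HiCUP and Bowtie2 (mm10, per the labels) and merged the replicates, from which CHiCAGO gave weighted counts and scores. Fragments scoring 5 or more in any sample were pooled by them, and those less than 10 fragments apart were merged. The signal values deposited by the authors are weighted read counts, normalized to reads on captured promoters and to the number of promoters, and summed over the fragments of a contact. The deposited scores come from CHiCAGO, either summed likewise or for the summit fragment alone. Merging hides replicate variation, and selection by score in the same libraries can raise the level of a reference. Fragment numbers in the deposited table and its other annotation columns were used as given. The number of fragments equalled that of a DpnII digest of GRCm38 at all 26 contacts.

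Groups came from the labels, and columns were matched to them by name. Values were divided by the fragment number, and log2 ratios used the smallest non-zero mean, 0.000350, as a pseudocount. The value of 1 read was the smallest step between values. The auxin columns had 2 step sizes, which split the baits into sets of 25, with Zfp503, and 19, so normalized counts were not compared between sets, while ratios, reads and scores were pooled over them. Wilson intervals of the treated share of reads were turned into ratios, and differences of ratios had square-and-add intervals. This was tested on simulated data. Annotation was the GENCODE M21 basic set (protein-coding transcripts), and sequences came from the RefSeq copy of GRCm38. Python 3.11.15, NumPy 2.4.6, pandas 2.3.3, SciPy 1.17.1 and matplotlib 3.10.9 were used.

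The members and lists were chosen with earlier results of these data known. Named were all PCGF2-site contacts, the 5 other contacts with the most reads over both references, any other site changed at least 2-fold one way in both systems (none was), the 3 baits nearest in both medians and the Fgf9 bait. No ESC marker could be checked in genomic DNA. The window of 1 PCGF2 site, Wnt5a, is not reported here.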

Additional observations from a re-analysis of the deposited data

How the results depend on the processing

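No change at PCGF2 or other sites reversed under the alternatives run, and 49 of 65 alternative values counted as kept. A change counted as kept within the counting interval of the summed reads, centred on the main value. A number of contacts counted as kept within 1.5 times, and a median score if equal to 3 digits. After OHT the median at PCGF2 sites became -1.27 as a ratio of summed counts, and that at other sites -0.077 as a mean and -0.045 when centred on the other sites of named baits, which had shifted by -0.17 after OHT and 0.09 in PRC1DEG cells. A pseudocount 10 times larger, which shrinks low counts by construction, gave -1.11 at PCGF2 sites in PRC1DEG cells and left 0 of 26 contacts at least 2-fold lower after OHT, against 2. A limit of 1.5-fold gave 6. Median mean scores at PCGF2 sites of 2.65, 0, 4.73 and 0 (untreated, OHT, Control, PRC1DEG) became 1.97, 0.0841, 5.93 and 0.0511 as means, and 6.90 and 7.56 in the references at the summit. A threshold of 10 left 0 calls in untreated cells and 2 in Control, as did the mean score over fragments (0 and 2). For the other shifts the cause was not tested. Depth limits Fezf2 and Cacna2d3, with no more than 3 reads in both perturbed libraries. No paired analysis was possible because each group has 1 merged column without replicate numbers, so leaving out replicates was not run either.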
